A study of Oryza sativa with 6 samples.

Results

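A set of 10 genes that turn nitrate into amino acids were followed in mature rice leaves of an SRL1 knockout (srl1-KO) and of the control without the knockout (non-KO). They were fixed by identifier: the glutamine synthetases GS1;1, GS1;2 and GS2, the glutamate synthases Fd-GOGAT, NADH-GOGAT1 and NADH-GOGAT2, the nitrate reductases NIA1 and NR2, the nitrite reductase NiR1 and the nitrate transporter NRT1.1B. Of these, 9 had a row among the 39477 loci of the deposited table. NADH-GOGAT1 (Os01g0681900) had none and was not analysed here. Poly(A) RNA was sequenced from 3 libraries of srl1-KO and 3 of non-KO, all from leaves taken 60 days after germination from greenhouse plants (30 °C in daytime, 25 °C at night). SRL1 is known for its effect on leaf rolling, and the comparison asks how the transcriptome differs without it. The sources used here do not give the cultivar, the mutant allele or the number of knockout lines. The protocol mentions a single plant, and nothing says that the 3 libraries of a genotype came from separate plants. The p-values thus reflect only how these libraries vary, which may be technical.

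In plants nitrate is reduced to nitrite in the cytosol by nitrate reductase and then to ammonium in the plastid by nitrite reductase. Glutamine synthetase adds ammonium to glutamate, and glutamate synthase passes the amido group on to make new glutamate, a cycle known as GS/GOGAT. The plastid pair GS2 and Fd-GOGAT also recaptures the ammonium set free in photorespiration, whereas the cytosolic GS1 and the NADH-dependent enzymes are linked in rice to nitrogen moving through vascular tissue, for instance out of ageing leaves.

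Levels are in FPKM, fragments scaled to transcript length and to the mapped fragments of the library, so that genes of different length can be set side by side. FPKM summed to between 598611 and 628270 per library, and 18861 to 19342 loci reached 1 FPKM. Relative to srl1-KO replicate 1, the depth of the remaining 5 libraries, read from barely detected loci, was 0.886 to 0.949, and absolute depth is unknown. SRL1 (Os07g0102300) itself had 1.62, 2.22 and 1.96 FPKM in srl1-KO leaves, against 2.50, 2.70 and 3.30 FPKM in non-KO leaves (limma adjusted p = 0.107). The transcript was thus present in all 6 libraries, with every srl1-KO value below every non-KO value. The allele is not known here, and these levels do not settle the labels. Markers of leaf mesophyll fitted the tissue label: the 4 summed to between 7352 and 9707 FPKM in srl1-KO and between 7958 and 12075 FPKM in non-KO, and none passed the test. Of 3 root markers, RCc3 and LSI2 were listed at 0 in every library and LSI1 averaged 12.5 FPKM in srl1-KO and 12.8 FPKM in non-KO.

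Among the 9 measured genes NADH-GOGAT2 (2.1-fold) and NiR1 (1.62-fold) were higher in srl1-KO, and GS2 was lower (to 0.698 times its non-KO mean). The other 6 gave no call: 5 did not pass the test and NR2 was too low to be tested. The test was limma on log2(FPKM + 1) across all loci averaging 1 FPKM or more, with a threshold of 0.05 on the Benjamini-Hochberg adjusted p. Thus 3 of the 8 tested genes were called, against 27.2% of all 19556 tested loci, a share too close to that background to set the group apart. By direction, 2 of the 8 rose, against 15.3% of all tested loci, and 1 fell, against 11.9%. The balance of rises and falls over all loci was not stable: it was 2995 rises and 2326 falls as reported, but 2330 and 2580 with libraries scaled to equal medians and 1324 and 1635 without srl1-KO replicate 2. The values of the genotypes did not overlap for 3 of the 8 genes, and did not for 47.1% of all tested loci. In bulk leaf RNA, fewer cells of a type and less RNA per cell cannot be told apart.

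**Figure D1:**
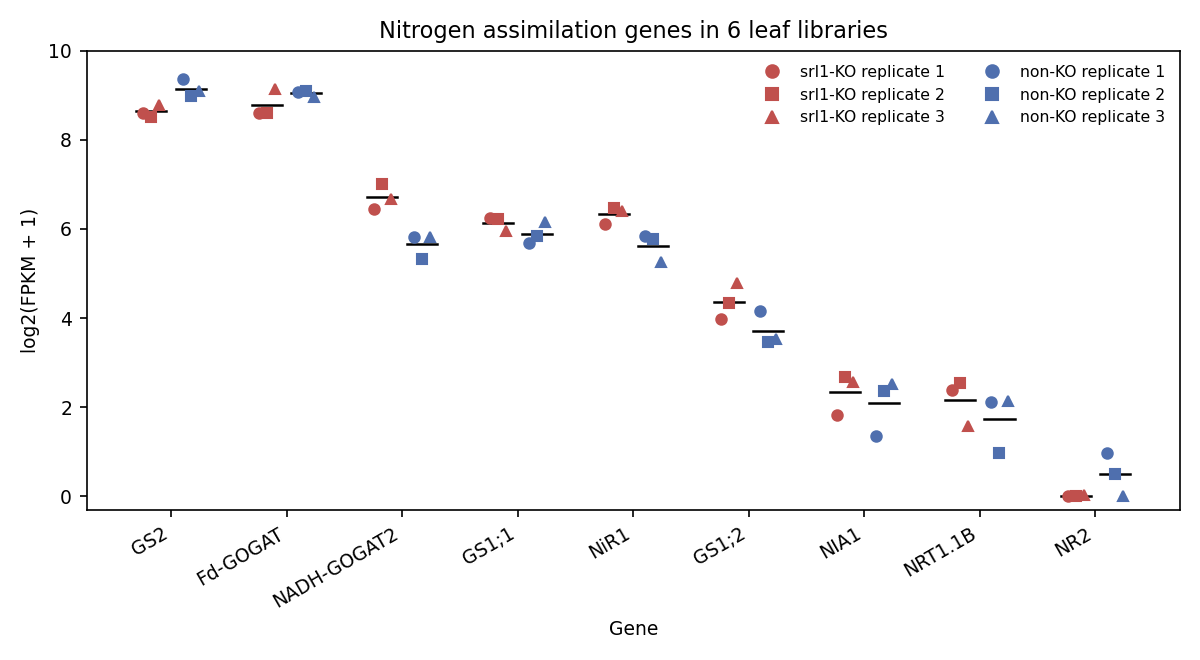
Level of the 9 measured genes as log2(FPKM + 1) in each library, srl1-KO in red on the left and non-KO in blue on the right of each gene, with marker shape for the replicate number and a black line for the mean of 3 libraries. GS2 and Fd-GOGAT lie highest, NR2 lies at or near 0, and the genotypes separate fully for NADH-GOGAT2, NiR1 and GS2.

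The levels spanned a wide range. Averaged over the 6 libraries, Fd-GOGAT stood at 488 FPKM and GS2 at 485 FPKM, and both lay above the 99th percentile of tested loci in every library. NADH-GOGAT2 (77.6 FPKM), NiR1 (64.4 FPKM) and GS1;1 (64.3 FPKM) followed, then GS1;2 (16.3 FPKM), NIA1 (3.88 FPKM), NRT1.1B (3.11 FPKM) and NR2 (0.230 FPKM). Of neighbours in this order, GS2 and NADH-GOGAT2, GS1;1 and GS1;2, GS1;2 and NIA1, and NRT1.1B and NR2 did not overlap in either genotype. Fd-GOGAT and GS2 overlapped in each genotype, as did NIA1 and NRT1.1B, and NiR1 overlapped its neighbours NADH-GOGAT2 and GS1;1. In srl1-KO the NADH-GOGAT2 libraries all lay above those of GS1;1, while in non-KO these genes overlapped.

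Nitrate uptake and signalling at the plasma membrane was represented by NRT1.1B (Os10g0554200, chromosome 10), a transporter that also acts as a nitrate sensor. It had 4.25, 4.80 and 1.99 FPKM in srl1-KO, against 3.30, 0.969 and 3.37 FPKM in non-KO. The genotypes overlapped, and the lowest library of each lay well under its other 2. The log2 change was 0.43 ± 0.39 (SE), with a 95% interval from -0.50 to 1.37 that leaves either direction possible (limma adjusted p = 0.443).

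Nitrate reductase transcripts were scarce in these leaves. NIA1 (Os08g0468100, chromosome 8) stood at 2.51, 5.37 and 4.91 FPKM in srl1-KO, against 1.56, 4.16 and 4.77 FPKM in non-KO. Replicate 1 was the lowest library of each genotype, and the genotypes overlapped. The log2 change was 0.27 ± 0.37 (SE; limma adjusted p = 0.623, 95% interval -0.62 to 1.15), and its sign turned without non-KO replicate 1 (-0.10). A second nitrate reductase gene with a neighbouring identifier, NIA2 (Os08g0468700), showed the same low replicate 1. It was at 1.65, 3.37 and 3.09 FPKM in srl1-KO, against 0.157, 2.71 and 2.03 FPKM in non-KO (limma adjusted p = 0.342). These are close relatives whose reads the counting may have split, so their separate values are uncertain. Summed, they came to 4.17, 8.74 and 8.01 FPKM in srl1-KO, against 1.71, 6.86 and 6.80 FPKM in non-KO (two-sided exact permutation p = 0.5). NR2 (Os02g0770800, chromosome 2), the other nitrate reductase of the group, was listed at 0, 0 and 0.0123 FPKM in srl1-KO, against 0.951, 0.417 and 0 FPKM in non-KO. Only non-KO replicates 1 and 2 were clearly above 0, and a library of each genotype was at 0 (two-sided exact permutation p = 0.4).

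Nitrite reductase, the plastid enzyme of the next step, was far more abundant and differed by genotype. NiR1 (Os01g0357100, chromosome 1) was at 67.7, 88.2 and 83.2 FPKM in srl1-KO, against 56.4, 54.1 and 37.0 FPKM in non-KO. All srl1-KO libraries lay above all non-KO libraries. It rose 1.62-fold, with means of 79.7 ± 10.7 FPKM in srl1-KO and 49.1 ± 10.6 FPKM in non-KO (SD, n = 3 each; log2 change 0.70 ± 0.19 SE; limma adjusted p = 0.0371). The call was lost without any 1 library other than srl1-KO replicate 1 (adjusted p = 0.0516 to 0.122) and with libraries scaled to equal medians (adjusted p = 0.0623). The ratio of NiR1 to the summed NIA1 and NR2 FPKM was 27.0, 16.4 and 16.9 in srl1-KO, against 22.5, 11.8 and 7.76 in non-KO. These ratios overlapped (log2 of the inverse ratio, two-sided exact permutation p = 0.3). With NIA2 added to the sum they were 16.3, 10.1 and 10.4 in srl1-KO, against 21.2, 7.43 and 5.44 in non-KO. They again overlapped (log2 of the inverse ratio, two-sided exact permutation p = 0.6).

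Of the glutamine synthetases, the plastid form fell and the cytosolic forms gave no call. GS2 (Os04g0659100, chromosome 4), the main glutamine synthetase of green leaf tissue, was at 389, 366 and 442 FPKM in srl1-KO, against 660, 509 and 545 FPKM in non-KO. Every srl1-KO library was below every non-KO library. The means were 399 ± 38.8 FPKM in srl1-KO and 571 ± 78.7 FPKM in non-KO (SD, n = 3 each), and limma gave a log2 change of -0.51 ± 0.15 (SE; adjusted p = 0.0472). That p is just under the threshold, and the call was lost when any 1 library was left out (adjusted p = 0.0541 to 0.160), with the change between -0.59 and -0.40.

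GS1;1 (Os02g0735200, chromosome 2), the cytosolic form linked in rice to growth and grain filling, was at 74.4, 74.1 and 60.6 FPKM in srl1-KO, against 50.4, 55.9 and 70.5 FPKM in non-KO. The lowest srl1-KO library lay below the highest non-KO library, so the genotypes overlapped (log2 change 0.25 ± 0.16 SE; limma adjusted p = 0.280). GS1;2 (Os03g0223400, chromosome 3), the cytosolic form known in rice for assimilating ammonium in roots, was at 14.7, 19.3 and 26.6 FPKM in srl1-KO, against 16.8, 10.1 and 10.5 FPKM in non-KO. The highest non-KO library lay inside the srl1-KO range, and the change did not pass the test (log2 change 0.65 ± 0.27 SE, 95% interval 0.02 to 1.28; limma adjusted p = 0.114). Another cytosolic gene, GS1;3, was at most 0.15 FPKM in any library.

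The make-up of the glutamine synthetase transcripts was described from the same values. GS2 made up 81.4%, 79.7% and 83.5% of the summed FPKM of GS2, GS1;1 and GS1;2 in srl1-KO, against 90.8%, 88.5% and 87.1% in non-KO. The mean share was 81.5% ± 1.92 in srl1-KO and 88.8% ± 1.86 in non-KO (SD, n = 3 each), and the genotypes were apart (exact permutation test, two-sided, p = 0.1; no smaller p is possible with 3 libraries against 3). A share of this kind does not move with library scaling. The summed glutamine synthetase level was 489 ± 35.9 FPKM in srl1-KO and 643 ± 77.4 FPKM in non-KO (SD, n = 3 each), also without overlap (exact permutation p = 0.1). The share and the sum both rest mainly on GS2, already called lower, so they are not further support. Single values did not overlap for 47.1% of all tested loci.

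**Figure D2:**
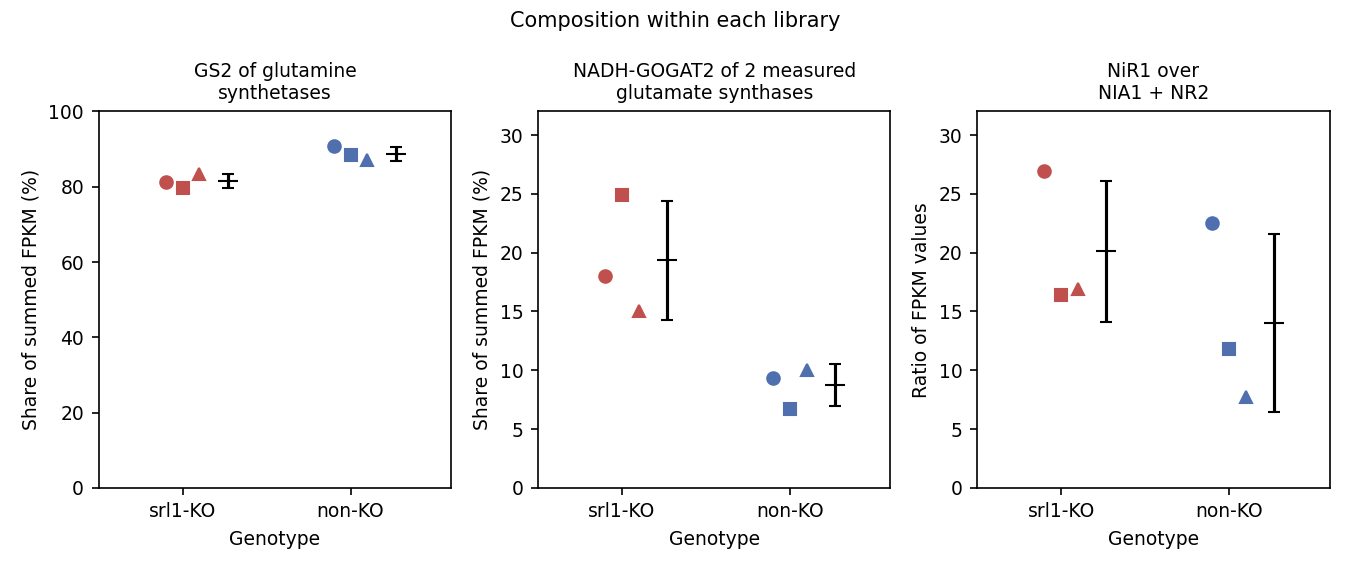
Left, share of GS2 in the summed FPKM of GS2, GS1;1 and GS1;2; middle, share of NADH-GOGAT2 in the summed FPKM of Fd-GOGAT and NADH-GOGAT2; right, ratio of NiR1 to the summed NIA1 and NR2. Coloured markers are single libraries by replicate number (circle 1, square 2, triangle 3), and the black bars are the mean ± SD of 3 libraries; the genotypes separate in the left and middle panels and overlap in the right one.

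Of the 3 calls, the 1 that held in every setting was in glutamate synthase. NADH-GOGAT2 (Os05g0555600, chromosome 5), which uses NADH as the electron donor, was at 85.9, 129 and 101 FPKM in srl1-KO, against 55.8, 39.2 and 55.5 FPKM in non-KO. The lowest srl1-KO library was well above the highest non-KO library. It rose 2.1-fold, with means of 105 ± 21.7 FPKM in srl1-KO and 50.1 ± 9.50 FPKM in non-KO (SD, n = 3 each; log2 change 1.05 ± 0.20 SE; limma adjusted p = 0.0113). This call held in all 12 other settings tried, where the change lay between 0.89 and 1.19 and the adjusted p between 0.00732 and 0.0475. How reads of its relative NADH-GOGAT1 were assigned is not known, so a contribution from that gene was not tested.

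Fd-GOGAT (Os07g0658400, chromosome 7), the ferredoxin-dependent enzyme of the chloroplast, was at 390, 387 and 568 FPKM in srl1-KO, against 539, 547 and 496 FPKM in non-KO. Replicates 1 and 2 of srl1-KO lay below all non-KO libraries, but replicate 3 was the highest of the 6. The log2 change was -0.26 ± 0.18 (SE; 95% interval -0.69 to 0.18; limma adjusted p = 0.326). NADH-GOGAT2 accounted for 18.0%, 24.9% and 15.1% of the summed FPKM of these 2 glutamate synthases in srl1-KO, against 9.37%, 6.68% and 10.1% in non-KO. The mean share was 19.3% ± 5.05 in srl1-KO and 8.70% ± 1.79 in non-KO (SD, n = 3 each), and the genotypes did not overlap (two-sided exact permutation p = 0.1). This share largely repeats the called rise of NADH-GOGAT2 and is not further support. The summed level overlapped, at 554 ± 102 FPKM in srl1-KO and 578 ± 23.0 FPKM in non-KO (exact permutation p = 0.8).

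Within the chloroplast cycle, GS2 over Fd-GOGAT was 0.996, 0.945 and 0.778 in srl1-KO, against 1.22, 0.930 and 1.099 in non-KO. The ratios overlapped (on log2 ratios, two-sided exact permutation p = 0.3). With 3 libraries against 3 this test cannot give a p under 0.1, so it cannot decide whether these plastid genes behaved separately.

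Markers of other cell states were read beside these results. Of 4 leaf senescence markers PAO, which opens the ring of the chlorophyll breakdown product pheophorbide, and NAP, a NAC transcription factor, rose, and SGR and NYC1 did not pass the test. Over all tested loci 15.3% rose, and 4 markers are too few to set against that share. PAO was at 22.2, 25.8 and 19.7 FPKM in srl1-KO, against 9.79, 15.2 and 12.6 FPKM in non-KO (limma adjusted p = 0.0181). NAP was at 6.48, 9.88 and 5.50 FPKM in srl1-KO, against 1.45, 4.39 and 2.13 FPKM in non-KO (limma adjusted p = 0.0357). The calls of PAO and NAP were not followed in the other settings. SGR was at 17.9, 12.4 and 2.27 FPKM in srl1-KO, against 3.35, 10.3 and 6.80 FPKM in non-KO (limma adjusted p = 0.719). NYC1 was at 204, 217 and 260 FPKM in srl1-KO, against 206, 198 and 191 FPKM in non-KO (limma adjusted p = 0.303). The 4 summed to between 251 and 288 FPKM in srl1-KO and between 212 and 228 FPKM in non-KO, most of it NYC1. Without NYC1 the sums were 27.5 to 48.1 FPKM in srl1-KO and 14.6 to 29.9 FPKM in non-KO, which overlap. The secondary-wall cellulose synthases CESA4, CESA7 and CESA9, markers of fibre and xylem cells, summed to between 2.82 and 8.07 FPKM in srl1-KO and between 2.05 and 18.4 FPKM in non-KO, and none of the 3 passed. None of these 7 markers was at 0. The part of senescence or of vascular cell content in the changes of NADH-GOGAT2, NiR1 and GS2 was not tested.

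The rest of the nitrogen pathway was described through 36 further genes, all of which had a row. Of these, 26 averaged 1 FPKM or more, and 9 of the 26 rose, 1 fell and 16 did not pass the test, where 15.3% of all tested loci rose and 11.9% fell. The median log2 change of the 26 was 0.39, against 0.11 over all tested loci. That 0.11 became 0.046 with libraries scaled to equal medians. The lists were chosen with earlier results of these data known, so these figures describe the chosen genes and do not test the pathway. Of the 10 calls, ASN1 and NRT2.3 reached the filter only through the genotype in which they were higher, which favours a call. With any 1 library left out, 5 to 9 were called, the fewest (5) without srl1-KO replicate 1 or 2, and 6 without non-KO replicate 1 or 2, and 5 to 8 of the 10 were among them.

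**Figure D3:**
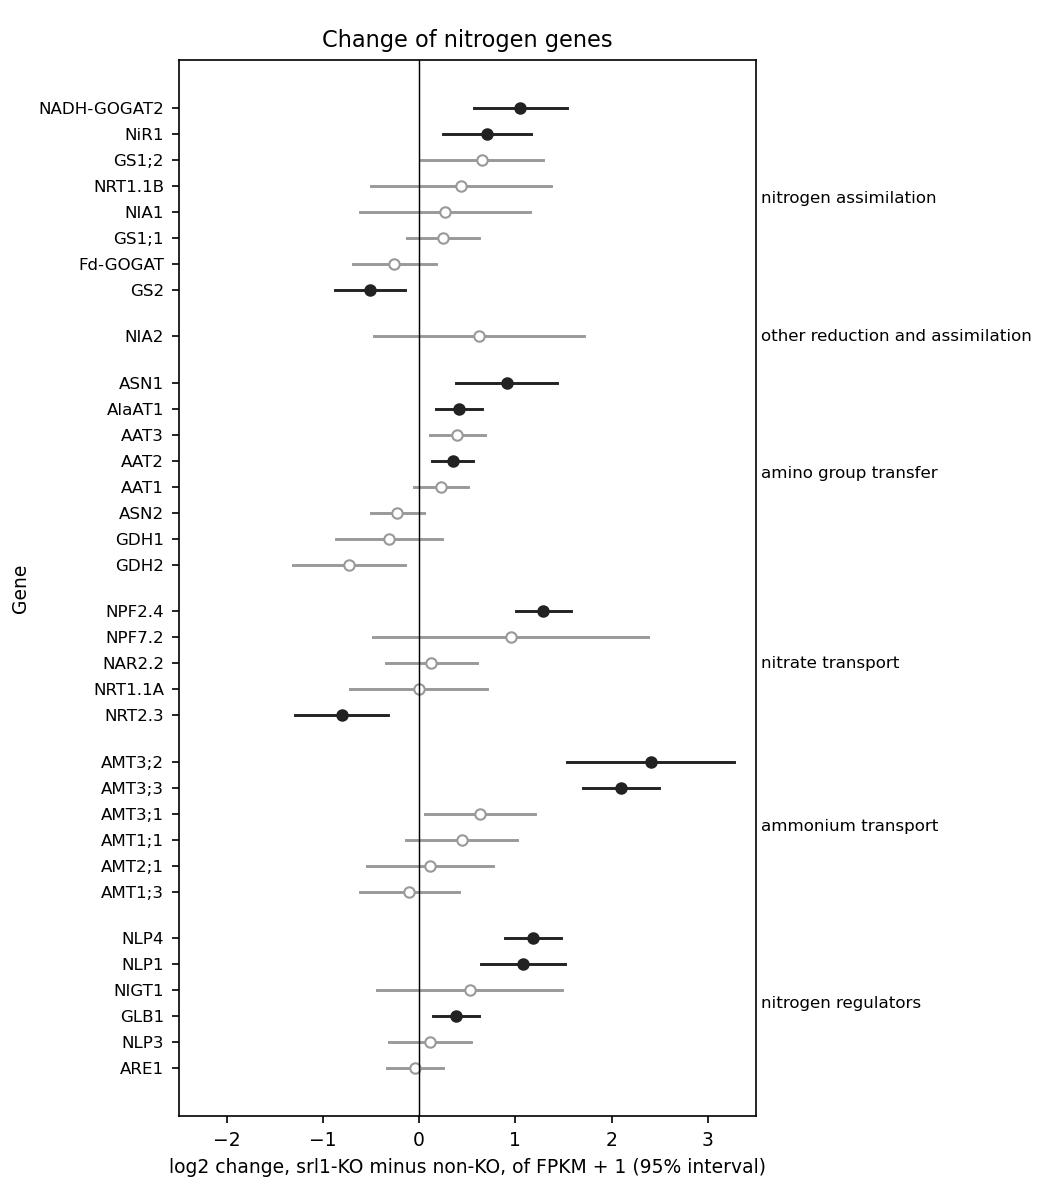
Change between genotypes (log2(FPKM + 1) of srl1-KO minus that of non-KO) for the 8 tested nitrogen assimilation genes and the 26 other tested nitrogen genes, grouped by role. Points are limma estimates and lines their 95% intervals; filled black points passed the adjusted p threshold of 0.05, and the largest rises were those of AMT3;2 and AMT3;3.

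Ammonium transporters held the largest changes among the tested nitrogen genes, with 2 of 6 tested members higher and none lower. Over all tested loci 15.3% were higher and 11.9% lower, and 6 genes are too few to set the family apart. AMT3;2 (Os03g0838400) was at 35.2, 16.6 and 16.3 FPKM in srl1-KO, against 2.04, 5.02 and 3.08 FPKM in non-KO, a 6.73-fold rise (log2 change 2.405 ± 0.363 SE; limma adjusted p = 0.00487). Replicate 1 stood far above the other srl1-KO libraries, yet the lowest srl1-KO value was over the highest non-KO value. AMT3;3 (Os02g0550800) was at 10.7, 6.97 and 8.10 FPKM in srl1-KO, against 1.26, 1.25 and 1.13 FPKM in non-KO, a 7.08-fold rise (log2 change 2.097 ± 0.167 SE; limma adjusted p = 0.000446). The names AMT1;2 and AMT1;3 may be interchanged between their identifiers, and neither locus was called.

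Among nitrate transport genes 1 rose and 1 fell, of 5 tested, where 15.3% of all tested loci rose and 11.9% fell. NPF2.4 (Os03g0687000), a low-affinity transporter known for long-distance nitrate transport, was at 62.9, 71.4 and 72.9 FPKM in srl1-KO, against 28.2, 24.3 and 30.5 FPKM in non-KO (2.50-fold; log2 change 1.29 ± 0.12 SE; limma adjusted p = 0.000791). NRT2.3 (Os01g0704100), a high-affinity transporter, fell to 0.617, 0.370 and 0.405 FPKM in srl1-KO, against 1.73, 1.98 and 1.04 FPKM in non-KO (log2 change -0.81 ± 0.20 SE; limma adjusted p = 0.0290). Its mean of 1.02 FPKM passed the filter only through the non-KO libraries, and it was not tested without non-KO replicate 1 or 2; with no filter its adjusted p was 0.0326. NRT2.1, NRT2.2 and NRT1.1C were listed at 0 in all libraries.

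Of 6 tested nitrogen regulators 3 rose, against 15.3% of all tested loci, and 6 genes are too few to set the list apart. NLP4 (Os09g0549450) and NLP1 (Os03g0131100) are NIN-like factors, a family that switches on nitrate-responsive genes. NLP4 was at 4.85, 4.89 and 4.65 FPKM in srl1-KO, against 1.74, 1.53 and 1.41 FPKM in non-KO (log2 change 1.18 ± 0.12 SE; limma adjusted p = 0.00115). NLP1 was at 11.1, 11.6 and 9.45 FPKM in srl1-KO, against 4.50, 3.46 and 5.89 FPKM in non-KO (log2 change 1.08 ± 0.18 SE; limma adjusted p = 0.00707). In both the genotypes were well apart. GLB1 (Os05g0133100), the plastid PII protein that senses carbon and nitrogen status, rose 1.31-fold, with means of 57.2 ± 3.54 FPKM in srl1-KO and 43.5 ± 2.29 FPKM in non-KO (SD, n = 3 each; limma adjusted p = 0.0311).

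Of the enzymes that move amino groups onward, 3 of 8 tested members rose and none fell. Over all tested loci 15.3% rose and 11.9% fell, and 8 genes are too few to set the list apart. ASN1 (Os03g0291500), an asparagine synthetase, was at 1.34, 1.81 and 1.80 FPKM in srl1-KO, against 0.300, 0.167 and 0.816 FPKM in non-KO (3.85-fold; log2 change 0.91 ± 0.22 SE; limma adjusted p = 0.0249). Its mean of 1.04 FPKM passed the filter only through the srl1-KO libraries, and it was not tested when any of these was left out; with no filter its adjusted p was 0.0315. The more abundant ASN2 (Os06g0265000) did not pass, at 28.9 ± 2.14 FPKM in srl1-KO and 34.1 ± 3.68 FPKM in non-KO (SD, n = 3 each; limma adjusted p = 0.192). AlaAT1, an alanine aminotransferase, rose 1.36-fold, with means of 17.2 ± 0.756 FPKM in srl1-KO and 12.7 ± 0.879 FPKM in non-KO (limma adjusted p = 0.0249). AAT2, an aspartate aminotransferase, rose 1.28-fold, with means of 40.9 ± 0.991 FPKM in srl1-KO and 31.9 ± 1.33 FPKM in non-KO (limma adjusted p = 0.0299). Each of these SDs is over 3 libraries. The calls of AMT3;2, AMT3;3, NPF2.4, NLP1 and NLP4 held in every setting in which they were tested, while those of ASN1, AAT2, AlaAT1, NRT2.3 and GLB1 were lost in 3, 8, 5, 4 and 7 of the 8 to 12 settings that tested them.

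**Figure D4:**
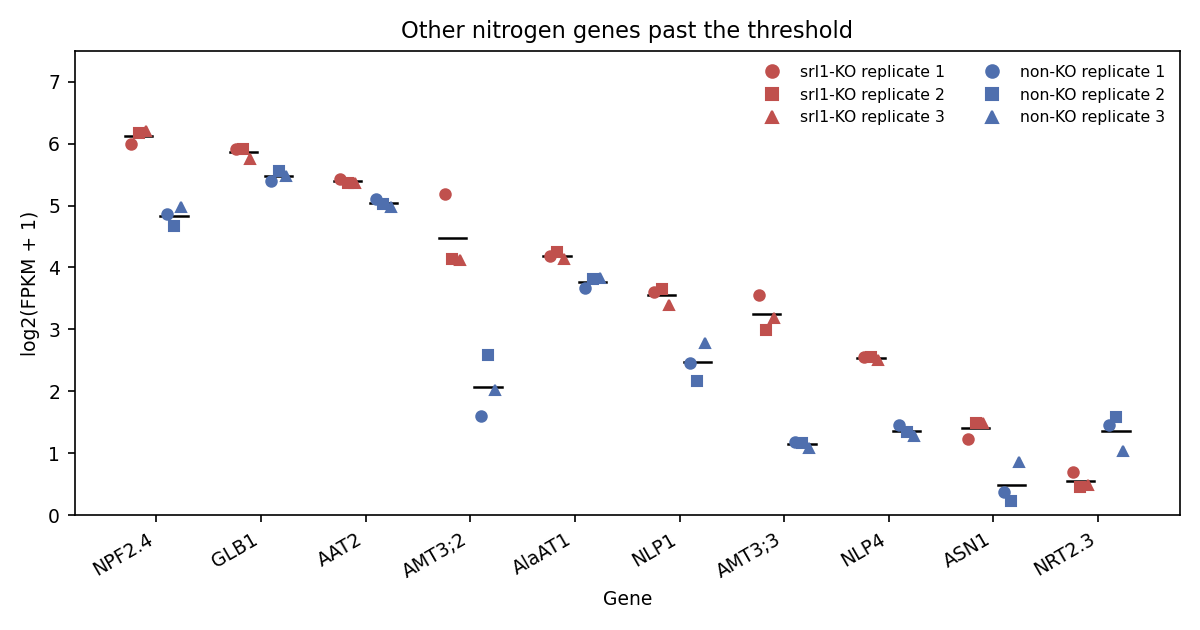
Level of the 10 further nitrogen genes past the threshold, as log2(FPKM + 1) in each library, srl1-KO in red on the left and non-KO in blue on the right of each gene; marker shape gives the replicate number and the black line the mean of 3 libraries. In all 10 the genotypes do not overlap, and NRT2.3 is the one that is lower in srl1-KO. The genes were chosen by the test, which favours separation, and 47.1% of all tested loci do not overlap.

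Profiles over the 6 libraries were also compared by Euclidean distance between log2(FPKM + 1) values centred on each gene's mean, among 33 other tested nitrogen genes. NADH-GOGAT2 lay nearest to NLP1 (distance 0.466, against a median of 1.36 over the 33), with ASN1 close behind at 0.477. ASN1 averaged 1.04 FPKM and passed the filter only through the srl1-KO libraries. Its log2 change was 0.91 on this scale but 1.91 with a pseudocount of 0.1, against 1.05 and 1.07 for NADH-GOGAT2. Distances were not computed with that pseudocount, so the place of ASN1 may rest on the scale. GS2 lay nearest to ASN2 (0.485, median 1.25), with Fd-GOGAT at 0.499. NiR1 lay nearest to AAT3 (0.555, median 1.06), followed by AMT1;1 at 0.630. For NADH-GOGAT2 and GS2 the nearest and next genes are hardly distinguished, and each distance rests on 6 libraries of 2 genotypes. The nearest of 33 genes lies under their median by construction. These members were compared because they were called, so closeness in part repeats the genotype difference. It is not evidence of a shared regulation.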

How the data were processed

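The deposited table gives FPKM values per locus, 1 column per library, per the file headers; replicates were not pooled. HISAT2, DESeq2 and the build IRGSP-1.0 appear in the submitters' processing notes without roles or versions; which tool and annotation gave the FPKM values, and whether strand was used, is not given in the sources used here. Per the labels' protocols, libraries were made from 1 µg of RNA with fragments near 240 bp. FPKM depends on the library total, so a change in a few abundant genes shifts all others. Absolute depth is unknown, so no counting interval is given and no count test was used.

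All 19556 loci averaging 1 FPKM or more were tested on log2(FPKM + 1) with limma 3.58.1 in R 4.3.3 (eBayes with trend, two-sided, Benjamini-Hochberg over all tested loci). Changes are srl1-KO minus non-KO on that scale, which understates changes of low loci; folds are ratios of mean FPKM. The fit was tested on simulated data. Single values were compared by exact permutation (scipy 1.17.1).

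The members and lists were chosen with earlier results of these data known. Identifiers and names come from general knowledge. Of 60 names used, 35 were found on the same chromosome in the RefSeq table of assembly ASM3414082v1, among them 5 of the 10 members; the other 25, including NADH-GOGAT2, NR2, NiR1, NRT1.1B, NPF2.4 and NLP4, were not found there and are used without this check. Of 90 pairs of found names on 1 chromosome, 89 were ordered as their identifiers are, AMT1;2 and AMT1;3 being the exception. The text names all members. From each further list come the called genes with the lowest adjusted p (at most 3), or, with none called, the most abundant gene. ASN2, AAT3 and AMT1;1 are named for their profiles. GS1;3, the transporters at 0 and the uncalled GDH1, GDH2 and AAT1 were chosen after their values were seen. Sequences were not used here. No pair of libraries was identical. Alternatives were another pseudocount (0.1), no filter, a filter at 5 FPKM, equal library medians, quantile normalization, a replicate block and leaving out each library.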

Additional observations from a re-analysis of the deposited data

How the results depend on the processing

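Of the 3 calls among nitrogen assimilation genes, 1 was left with no filter on low values and 1 with the replicate block; without 1 library 1 to 2 were left, and in each case NADH-GOGAT2 was among them. Among further nitrogen genes 10 were called as reported, 5 with the block, all of them among the 10, and 5 to 9 without 1 library, of which 5 to 8 were among the 10. Over all loci the 5321 calls became 3649 with the block and 2959 to 4638 without 1 library, the fewest without srl1-KO replicate 2. GS2 missed the threshold with no filter (adjusted p = 0.104) and with the block (0.0932), and NiR1 with no filter (0.0621), equal library medians (0.0623) and the block (0.0760). The labels do not say that equal replicate numbers pair the libraries, and the deviations of same-numbered libraries correlated at -0.05, 0.05 and 0.02, with no library closest to its own number, so the block is not read as a weaker effect. NIA1 changed by -0.10 to 0.53 without 1 library, so its direction is not determined. The ratio differences kept their sign without any 1 library. The share differences could not turn, as the genotypes do not overlap in them. The ratio with NIA2 and the senescence sum without NYC1 were added after the data were seen, as were the alternatives for single further genes. Fewer libraries or residual degrees of freedom can lower counts. Which library was left out also mattered, with 2959 to 4638 calls over all loci. Why calls were lost was not tested. Absolute depth is unknown, and the libraries may share a plant. Names absent from the reference table rest on general knowledge.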
